A study of Mus musculus with 6 samples.

Results

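The C/EBP and ATF4-type factors measured here were Cebpa, Cebpb, Cebpd, Cebpg, Ddit3, Atf4, Atf5 and Trib3, which are 8 of the 18193 genes with a probe set of their own. They were chosen by name, as every probe set whose annotation gives exactly 1 gene symbol equal to a member, which yielded 16 probe sets. Dedifferentiated fat (DFAT) cells were compared with mature adipocytes (AC) on Affymetrix mouse GeneChip arrays, with 3 arrays of DFAT cells and 3 of AC. DFAT cells were a line that ceiling culture gave from fat cells of mice with a GFP transgene, a method in which floating adipocytes attach to an upper surface and lose their lipid, and they were grown to semiconfluence. AC were primary adipocytes of mouse fat tissue, for which a GFP transgene was not stated. Whether replicates stand for different mice or cultures was not stated either, so the p-values cover the spread among these arrays alone and do not extend to other DFAT lines.

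C/EBP proteins are leucine zipper factors that bind DNA as dimers, and they act in sequence during fat cell formation. C/EBPβ and C/EBPδ are induced early and raise C/EBPα, which then holds the mature state together with PPARγ. ATF4 belongs to a related branch. When a kinase phosphorylates the translation factor eIF2α, most protein synthesis falls while ATF4 is translated more, and ATF4 then drives genes of amino acid supply together with CHOP (encoded by Ddit3), ATF5 and Trib3. Since ATF4 and ATF5 are controlled largely at translation, arrays of mRNA do not measure their proteins.

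All 8 members passed the test, in opposite directions. The 4 C/EBP genes Cebpa, Cebpb, Cebpd and Cebpg fell in DFAT cells, and Ddit3, Atf4, Atf5 and Trib3 rose. Among all genes, 46.4% were called, 23.8% as lower and 22.6% as higher, by limma at an adjusted p under 0.05, with 1 probe set per gene, that of the highest mean over the 6 arrays. The groups did not overlap for 8 of 8 members, against 60.0% of all genes. The median difference of the members was 0.02 on the log2 scale, where that of all genes was -0.10. No member was at background level in either group, a level set on each array by the 95th percentile of 125 probe sets for lens, retina, inner ear and germ cell genes, which lay between 5.68 and 6.0.

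**Figure D1:**
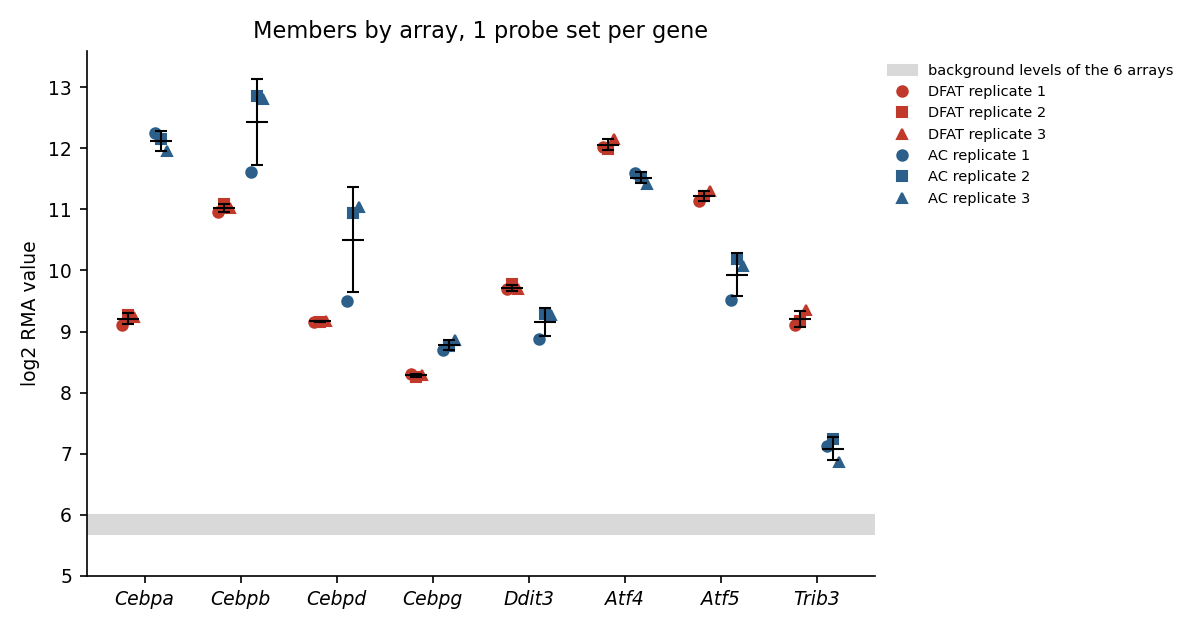
Log2 RMA values (vertical axis) of the 8 members, with DFAT arrays in red left of AC arrays in blue; each point is an array, black bars give the mean with the SD (n = 3), and grey shading covers the range of background levels. Cebpa, Cebpb, Cebpd and Cebpg lie lower in DFAT cells and Ddit3, Atf4, Atf5 and Trib3 higher, and AC replicate 1 (blue circle) lies apart for Cebpb and Cebpd.

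The arrays were not equally alike. Across all probe sets, DFAT arrays correlated with each other at 0.995 to 0.996, AC replicates 2 and 3 at 0.992, and AC replicate 1 with these at 0.969 and 0.971. Each of the 14 measured markers of white adipocytes fell in DFAT cells, and 9 of them, among them Adipoq and Cidec, were at background level there. AC arrays also held signal of other cells. Of 18 endothelial markers, 15 lay at background level in DFAT cells and 0 in AC. Of 18 macrophage markers, 15 were so in DFAT cells and 1 in AC. In such bulk samples, fewer cells of a type and less RNA per cell cannot be told apart.

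Cebpa, the factor of the mature adipocyte, had the largest fall of the members. Its log2 values were 9.11, 9.27 and 9.23 in DFAT cells and 12.26, 12.16 and 11.95 in AC. The arrays of each group lay within 0.31 of each other, and the gap between the groups was far wider. The difference was -2.92 (95% confidence interval -3.24 to -2.60, adjusted p = 1.94e-06 from limma), a 7.56-fold lower level in DFAT cells, and 3.73% of all genes had a larger fall. Cebpa kept its call under each of the alternative settings, and its values in DFAT cells stayed well above background level.

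Cebpb and Cebpd, the early factors of adipogenesis and also mediators of the acute phase response, fell too, but with a wide spread in AC. Cebpb was 10.95, 11.09 and 11.02 in DFAT cells and 11.62, 12.86 and 12.81 in AC. Cebpd was 9.16, 9.16 and 9.17 in DFAT cells and 9.50, 10.94 and 11.04 in AC. In each case AC replicate 1 was the low AC array and lay much nearer to the DFAT arrays than the other AC arrays did. The difference was -1.41 for Cebpb (95% confidence interval -2.14 to -0.68, adjusted p = 0.00832 from limma) and -1.33 for Cebpd (95% confidence interval -2.20 to -0.46, adjusted p = 0.0242 from limma). Without AC replicate 1 the differences were -1.81 and -1.83 (limma, adjusted p = 7.53e-06 and 6.21e-06). A further probe set of Cebpb fell by 1.5 on the log2 scale, and a further probe set of Cebpd was at background level on all arrays. The call of Cebpd was lost when any single array other than AC replicate 1 was left out, with an adjusted p between 0.0694 and 0.0831 from limma.

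Cebpg, which lacks an activation domain of its own and pairs with other C/EBP proteins and with ATF4, changed least of the 4. It was 8.31, 8.26 and 8.28 in DFAT cells and 8.70, 8.77 and 8.86 in AC. These values hardly varied within a group. The difference was -0.49 (95% confidence interval -0.78 to -0.21, adjusted p = 0.0141 from limma), and 25.0% of all genes fell further. Of its other probe sets, 1 fell by 0.82 on the log2 scale (adjusted p = 0.0019 from limma), and the last was at background level on all arrays. Centred on the hybridization controls the difference of Cebpg was -0.03, and its call was also lost without DFAT replicate 2 or DFAT replicate 3, at -0.48 and -0.49.

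Among the members that rose, Trib3 changed most. Trib3 encodes a pseudokinase of the Tribbles family, not a leucine zipper factor, and is known as a target and partner of ATF4 and CHOP that also binds the kinase Akt. Its values were 9.10, 9.17 and 9.35 in DFAT cells and 7.13, 7.24 and 6.87 in AC. The groups lay far apart, and AC replicate 1 did not stand out. The difference was 2.12 (95% confidence interval 1.77 to 2.47, adjusted p = 1.73e-05 from limma), a 4.35-fold higher level in DFAT cells that 4.35% of all genes exceeded. The name of this probe set ends in _x_at, which marks probes that may also bind other transcripts. The other probe set of Trib3, which ends in _a_at, rose by 1.59.

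Atf5, a close relative of ATF4 with a known part in the response to damaged mitochondrial proteins, rose as well. It was 11.14, 11.22 and 11.31 in DFAT cells and 9.52, 10.18 and 10.08 in AC, where replicate 1 was the lowest array. The difference was 1.29 (95% confidence interval 0.85 to 1.74, adjusted p = 0.001 from limma), and it was 1.09 without AC replicate 1.

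Ddit3 and Atf4 rose less. Ddit3, whose product CHOP pairs with C/EBP proteins and keeps them from their usual sites, was 9.70, 9.78 and 9.69 in DFAT cells and 8.88, 9.29 and 9.27 in AC. The difference of 0.58 (95% confidence interval 0.22 to 0.93, adjusted p = 0.0183 from limma) was larger than the spread within either group. Another probe set of Ddit3 had 6.72, 6.56 and 6.46 in DFAT cells and 7.22, 5.95 and 5.95 in AC. There the groups overlapped, with AC replicate 1 as the highest array, and the difference was 0.21 (95% confidence interval -0.56 to 0.97). The call of Ddit3 was lost without DFAT replicate 1, 2 or 3, at 0.58, 0.55 and 0.59, with an adjusted p between 0.0596 and 0.0756 from limma.

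Atf4 itself was 12.03, 11.99 and 12.15 in DFAT cells and 11.60, 11.53 and 11.42 in AC. The difference was 0.54 (95% confidence interval 0.25 to 0.84, adjusted p = 0.011 from limma), a 1.46-fold higher level in DFAT cells. An _x_at probe set of Atf4 had 10.55, 10.33 and 10.35 in DFAT cells and 7.32, 8.95 and 8.94 in AC. It thus gave the same direction with a larger difference of 2.0 and a wider spread in AC, and the third probe set of Atf4 was at background level on all arrays. The call of Atf4 was lost without DFAT replicate 3 (difference 0.49, adjusted p = 0.0598 from limma).

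Over all 16 probe sets, 6 were higher and 6 lower in DFAT cells, where the test called 38.4% of all probe sets, 20.3% as higher and 18.1% as lower. Of the 4 that did not pass, 3 were at background level on all arrays, and the other was the second probe set of Ddit3. The groups did not overlap for 51.9% of all probe sets. No member had probe sets called in opposite directions, and 6 of the 8 genes had more than 1 probe set.

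**Figure D2:**
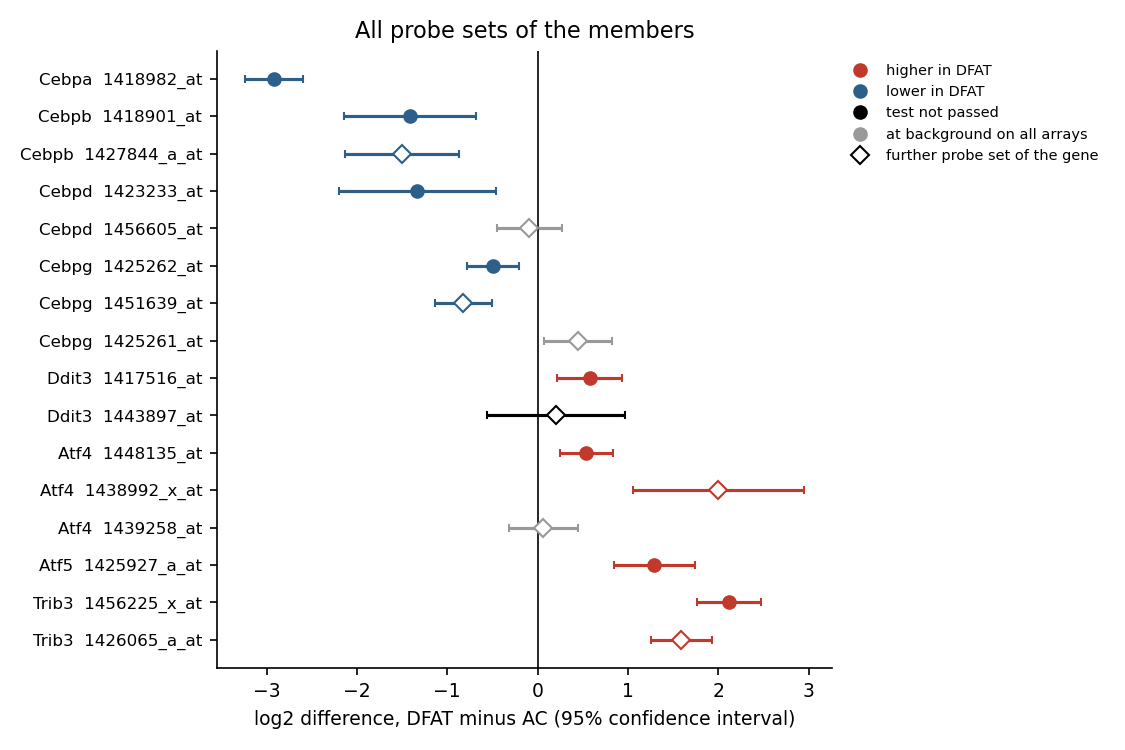
Log2 difference between DFAT cells and AC with its 95% confidence interval (horizontal axis) for each of the 16 probe sets of the members, filled circles for the probe set that represents a gene and open diamonds for the others. Probe sets of the 4 C/EBP genes that passed the test lie left of 0 and those of Ddit3, Atf4, Atf5 and Trib3 right of it, and the 3 grey ones were at background level on all arrays.

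The scale of the arrays mattered for the small differences. The median difference over all probe sets was -0.06 as deposited and 0.07 after centring by array medians. Centring by 12 reference genes moved it to -0.46, and centring by hybridization controls moved it to 0.40. The share of calls that were higher in DFAT cells was 52.9% as deposited and 63.0%, 21.7% and 78.5% under the other scalings. Every member kept its direction under all 3. Cebpa, Atf5 and Trib3 passed the test under each of them. With array medians Cebpg no longer did, at -0.36. With the reference genes Ddit3 and Atf4 no longer did, at 0.18 and 0.15, and with the hybridization controls Cebpb, Cebpd and Cebpg no longer did, at -0.95, -0.87 and -0.03.

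**Figure D3:**
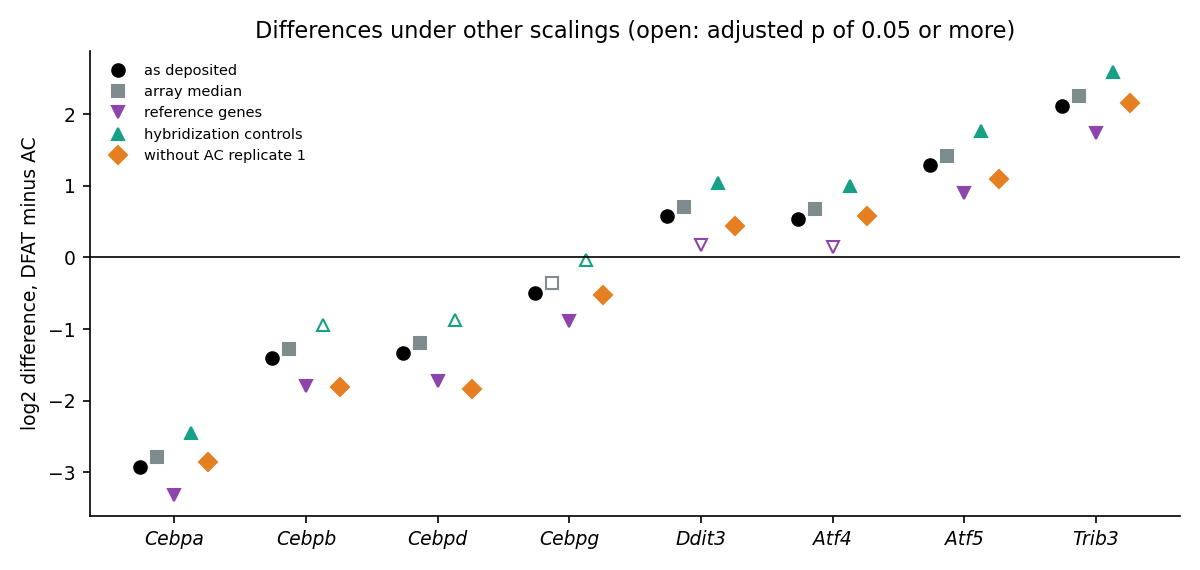
Log2 difference between DFAT cells and AC (vertical axis) of each member as deposited, under 3 other scalings and without AC replicate 1; open marks have an adjusted p of 0.05 or more from limma. Every mark of the 4 C/EBP genes lies under 0 and every mark of Ddit3, Atf4, Atf5 and Trib3 above it.

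Genes that ATF4 is known to drive rose widely where they serve amino acid supply. Of 33 measured targets in transport, synthesis and tRNA charging of amino acids, 27 rose, 2 fell and 4 did not pass the test. The shares over all genes, to be read beside this and the other lists, were 22.6% higher and 23.8% lower. These lists were chosen with earlier results of these data known. Of 9 transporters 7 were called higher and 1 lower, with a median difference of 1.5, of 12 enzymes of amino acid and one-carbon synthesis 10 and 1, with a median of 2.73, and of 12 tRNA synthetases 10 and 0, with a median of 1.5. Slc7a3, a transporter called higher, lay at background level on all arrays. Slc7a11, also called higher, did so on every AC array and on 2 DFAT arrays. With values floored at background level, 5 of the 9 transporters were called higher. At least 4-fold higher, a rule that 11.4% of all genes met in either direction, were 3 of the 9 transporters, 6 of the 12 enzymes and 3 of the 12 synthetases.

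Several of these genes were at background level in AC. Aldh1l2, a mitochondrial folate enzyme, was 10.52, 10.44 and 10.52 in DFAT cells and 3.87, 4.07 and 4.42 in AC. Bcat1, which starts the breakdown of branched-chain amino acids, was 10.82, 10.85 and 10.90 in DFAT cells and 4.21, 5.07 and 5.27 in AC. Aldh18a1, which makes the precursor of proline, was 11.19, 11.16 and 11.22 in DFAT cells and 5.60, 5.58 and 5.83 in AC. All 3 were at background level on every AC array, so the sizes of their differences, 6.37, 6.01 and 5.52, are not exact. Asns, the asparagine synthetase often used as a readout of ATF4, was measured in both groups, and rose by 1.42 (adjusted p = 5.18e-05 from limma).

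Among the transporters, Slc7a5, the carrier of large neutral amino acids, rose by 4.38, and Slc7a1, a carrier of basic amino acids, by 2.71. Slc1a5, a glutamine carrier, went the other way. It was 8.76, 8.96 and 8.95 in DFAT cells and 12.06, 12.42 and 12.37 in AC, a difference of -3.40 (adjusted p = 1.24e-06 from limma). Gpt2, an alanine transaminase, had a difference of -1.8 (adjusted p = 0.00478 from limma). Of the tRNA synthetases, Iars rose by 2.71, Tars by 2.30 and Gars by 2.0, while Eprs and Wars had differences of 0.50 and 0.12 that did not pass the test.

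The stress effectors that ATF4 and CHOP are known to switch on were split. Of 17 measured, 4 rose, 8 fell and 5 did not pass the test, with a median difference of -0.31. Atf3, a partner of CHOP that stress induces early, was 6.25, 6.15 and 5.97 in DFAT cells and 12.15, 12.12 and 12.21 in AC. Ppp1r15a, which leads a phosphatase back to eIF2α and so ends the response, was 8.46, 8.54 and 8.53 in DFAT cells and 11.14, 11.31 and 11.29 in AC. Both were high on every AC array, including replicate 1. The differences were -6.04 for Atf3 and -2.74 for Ppp1r15a (limma, adjusted p = 7.16e-08 and 1.49e-06). Vldlr, a lipoprotein receptor, had a difference of -2.80. Chac1, which degrades glutathione, and Sesn2, a brake on mTORC1, had differences of 0.94 and -0.01 that did not pass the test.

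Atf3 also belongs to the immediate early genes, of which 16 were measured. In DFAT cells 12 of them fell and 2 rose, with a median difference of -2.49. Fosb and Fos had differences of -8.39 and -5.66, and Fosl1 rose by 1.73. Fosb was at background level on every DFAT array, so the size of its difference is not exact. Such genes are known to respond within minutes to handling of tissue, and Cebpb and Cebpd are known to respond quickly as well. The part of this response in the levels of Cebpb, Cebpd and Atf3 was not tested. Without DFAT replicate 1, 2 or 3, Fosl1 lost its call, with an adjusted p up to 0.0867 from limma, and 1 immediate early gene was called higher.

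Upstream of ATF4, 4 of 15 genes of eIF2α kinases and the eIF2 cycle rose, 1 fell and 10 did not pass the test, with a median difference of -0.07. Eif2ak4, which encodes GCN2, the sensor of uncharged tRNA, was 7.05, 7.01 and 7.16 in DFAT cells and 5.69, 5.85 and 5.27 in AC. It was at background level on 2 AC arrays, and the difference was 1.47 (adjusted p = 0.000295 from limma). Eif2b5, a subunit of the exchange factor of eIF2, rose by 1.10, and Eif2ak3, the ER kinase PERK, by 1.09. Ppp1r15a was the gene of this list that fell. Among all genes 22.6% rose and 23.8% fell. The balance turned with the scaling: centred on the reference genes 8 of the 15 fell, and centred on array medians or on the hybridization controls 7 rose. Without AC replicate 1, 3 fell.

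Of 21 genes of ER chaperones and the unfolded protein response, 11 rose and 2 fell, against 22.6% and 23.8% of all genes. Their median difference was 0.86. Centred on the reference genes 4 fell, and centred on the hybridization controls 1 did. Creld2 rose by 2.21 and Hsp90b1, the ER form of the heat shock protein HSP90, by 1.62. Dnajb9, a cochaperone of BiP, was 8.76, 8.66 and 8.57 in DFAT cells and 10.65, 11.17 and 11.01 in AC. Its difference was -2.28, and that of Xbp1, a leucine zipper factor of the same response, was -0.84. Hspa5, which encodes BiP, had a difference of 0.68 that did not pass the test (adjusted p = 0.0563 from limma).

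Mitochondrial chaperones and proteases include some known targets of ATF5. Of 12 measured, 4 rose and 4 fell, against 22.6% and 23.8% of all genes, with a median difference of -0.27. Htra2, a protease, rose by 1.48, while Clpx, a subunit of the ClpXP protease, had -1.64 and Trap1, a chaperone, -1.27. These counts also depended on the scaling. With the reference genes as the centre, 2 were higher and 7 lower, after a further quantile normalization 7 fell, and centred on the hybridization controls 2 fell. Without DFAT replicate 1 or DFAT replicate 2, 2 of these genes were called lower.

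**Figure D4:**
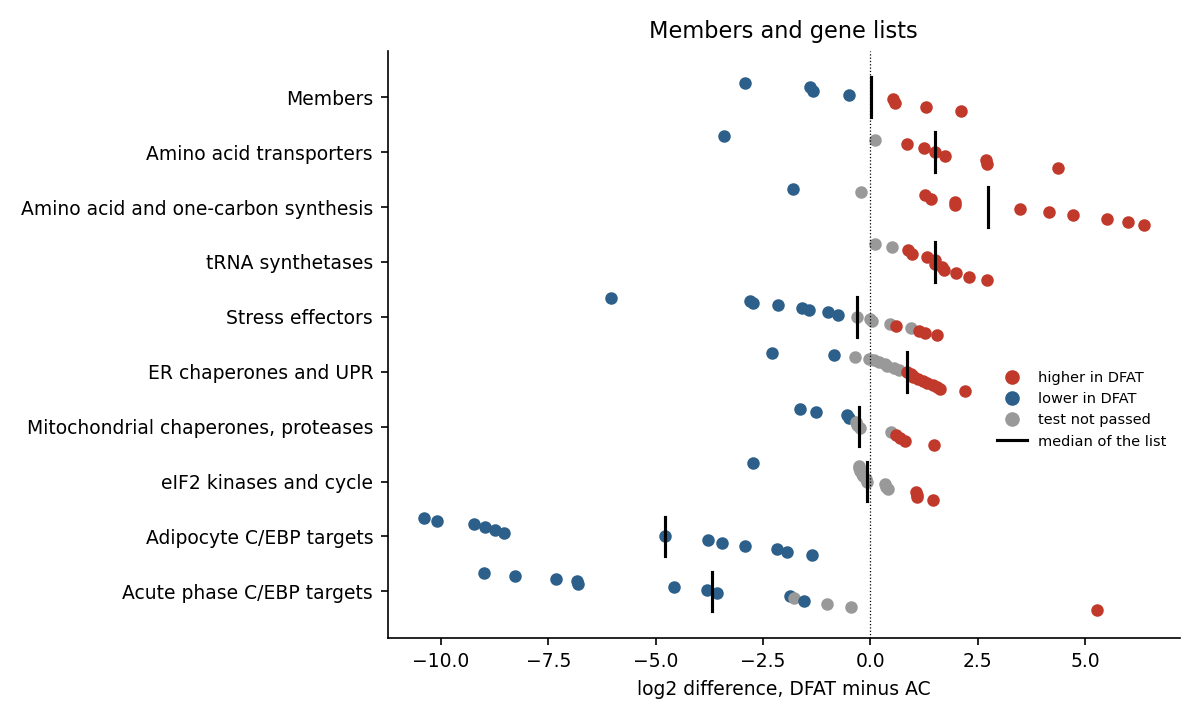
Log2 difference between DFAT cells and AC (horizontal axis) of the members and of the genes of 9 lists, each point a gene (red higher, blue lower, grey not past the test) and each black bar the median of a list. The 3 lists of amino acid supply have medians of 1.5, 2.73 and 1.5, while the stress effectors have -0.31 and the adipocyte and acute phase C/EBP targets -4.78 and -3.69. The medians of the C/EBP targets are not exact, as they rest on genes at background level in DFAT cells.

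Promoter sequences from RefSeq (GRCm38.p6) were searched for sites of these factors, from 250 bases before to 50 bases after each start. The C/EBP-ATF composite site, to which ATF4 binds with a C/EBP partner, was searched as TGATGNAA on both strands. It was found in 3.97% of the 32851 promoters in the table. Of the members, 7 had promoters there, and Trib3 alone held a match. The C/EBP site (TTNNGCAA), the cyclic AMP response element (TGACGTCA) and the ER stress element (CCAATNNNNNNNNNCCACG) had no match in a promoter of the members, and were found in 10.8%, 1.79% and 0.119% of all promoters. Only exact letters in this window were searched, so sites with a changed letter or outside the window were not counted. The Ddit3 promoter, for example, held the ER stress element with a changed letter.
In the 4 lists of ATF4 targets, 15 of 50 promoters held the composite site, in 15 genes. Of these genes 10 rose, 4 fell and 1 did not pass the test, so that the letters were found in genes of either direction. In the lists as a whole, 27 of 33 targets of amino acid supply and 4 of 17 stress effectors rose, and 2 and 8 fell. Of all genes, 22.6% rose and 23.8% fell. Listed genes with and without the site were not compared, so these counts are no result about the site. Some of these genes are known as ATF4 targets because of such sites, and a match is no proof of binding here. The following windows show Trib3 beside genes that rose and genes that fell, read 5′ to 3′ on the strand that carries the searched letters, with the match in capitals.
Trib3: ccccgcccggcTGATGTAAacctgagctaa
Iars: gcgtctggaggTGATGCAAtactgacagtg
Tars: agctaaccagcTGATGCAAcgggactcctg
Asns: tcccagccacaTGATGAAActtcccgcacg
Atf3: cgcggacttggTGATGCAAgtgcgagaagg
Nupr1: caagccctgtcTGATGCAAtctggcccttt
Vldlr: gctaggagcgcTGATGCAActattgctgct
These 30 bases lie at chr2:152344028-152344057 on the plus strand for Trib3, at chr13:49682126-49682155 on the minus strand for Iars and at chr15:11399655-11399684 on the plus strand for Tars. They lie at chr6:7693214-7693243 on the minus strand for Asns and at chr1:191183425-191183454 on the plus strand for Atf3. For Nupr1 they lie at chr7:126625562-126625591 on the plus strand and for Vldlr at chr19:27216809-27216838 on the minus strand. Trib3, Iars, Tars and Asns, higher in DFAT cells by 2.12, 2.71, 2.30 and 1.42, thus share the fixed letters with Atf3, Nupr1 and Vldlr, whose differences were -6.04, -1.58 and -2.80.

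On the side of the C/EBP genes, 13 of 13 measured target genes of C/EBPα and C/EBPβ in adipocytes fell, with a median difference of -4.78, and 7 of them were at background level in DFAT cells. Many of these genes, among them Adipoq, Cd36, Cidec, Slc2a4, Fabp4 and Lpl, are also white adipocyte markers of the list above. This count is therefore not separate from the fall of those markers. The differences were -10.40 for Adipoq, which encodes adiponectin, -10.09 for the fatty acid transporter gene Cd36 and -9.22 for the lipid droplet gene Cidec, all of which were at background level on every DFAT array. The sizes of these differences are therefore not exact, and neither is the median of the list, which is the value of Slc2a4, a gene also at background level in DFAT cells. The other targets were not all lost. Fabp4, a fatty acid carrier, was 11.62, 11.53 and 11.51 in DFAT cells and 14.34, 14.51 and 14.54 in AC, and Lpl, the lipoprotein lipase, had a difference of -1.94. PPARγ is also known to drive most of these genes. Pparg itself was 9.31, 9.35 and 9.36 in DFAT cells and 11.34, 11.64 and 11.56 in AC.

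Around the C/EBP genes in the adipogenic cascade, 12 of 14 regulators fell and 2 rose, with a median difference of -1.70. Klf15 had a difference of -4.86, Zfp423, a factor of preadipocyte commitment, -3.15 and Zfp467, a zinc finger factor, -2.79. In DFAT cells Klf15 and Zfp467 were at background level, and Zfp423 was so on 2 DFAT arrays, so the sizes of these differences are not exact. Egr2 and Ebf2 were the ones that rose, by 0.78 and 1.33. Of 12 genes on a list of regulators of C/EBP and ATF4 proteins, 5 rose and 3 fell. With the reference genes as the centre, 2 rose. Acaca, counted among the falls, is not such a regulator but the acetyl-CoA carboxylase that Trib3 can mark for degradation. It had a difference of -3.60.

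The Tribbles relatives of Trib3 were split. Trib1, which leads C/EBPα to the ubiquitin ligase COP1, was 7.24, 7.40 and 7.28 in DFAT cells and 7.65, 10.57 and 10.31 in AC. Trib2, which does the same, was 8.88, 8.88 and 8.90 in DFAT cells and 7.94, 5.22 and 5.80 in AC. Both passed the test, with differences of -2.21 for Trib1 and 2.57 for Trib2. For both, AC replicate 1 lay nearer to the DFAT arrays than the other AC arrays did. The call of Trib1 was lost when any single array other than AC replicate 1 was left out, with an adjusted p up to 0.12 from limma. Akt1 rose by 1.83, and Akt2, the isoform of insulin action in fat, had a difference of -1.62.

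Of 24 other genes of leucine zipper factors, 7 rose, 9 fell and 8 did not pass the test, with a median difference of -0.24. Of all genes, 22.6% rose and 23.8% fell. Besides Atf3, Hlf, a factor of the daily rhythm, had a difference of -3.14 with DFAT values at background level, so that its size is not exact, and Creb3l1, a factor of the secretory pathway, was 9.26, 9.13 and 9.32 in DFAT cells and 6.14, 6.91 and 7.09 in AC. Creb3l1 rose by 2.52, and Jdp2, which binds C/EBP and AP-1 partners, by 1.28. Batf3 counts as a fall although it was at background level in both groups. Nfil3, a repressor of the daily rhythm, was 7.66, 7.54 and 7.64 in DFAT cells and 7.69, 10.61 and 10.46 in AC, and did not pass the test (adjusted p = 0.0552 from limma). With the hybridization controls 5 of these genes were lower and with the reference genes 14.

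The low values of Cebpb and Cebpd on AC replicate 1 stood beside low values of acute phase genes on the same array. Of 14 acute phase targets of C/EBPβ and C/EBPδ, 13 were lower on AC replicate 1 than on both other AC arrays, where 48.0% of all genes were. Of the 14, 6 were lower there by at least 1 on the log2 scale than the mean of the others, against 4.61% of all genes. Low values on this array were not limited to these targets. AC replicate 1 was the lowest AC array for 94.4% of macrophage markers and 84.6% of fibroblast markers. It was so for 81.2% of immediate early genes and 62.5% of the members. The shares were 80.0% for the eIF2 list and 76.2% for the ER list, but 14.3% for epithelial and mammary markers and 0.0% for endothelial markers. Drops of at least 1 were found for 77.8% of macrophage markers, a larger share than the 42.9% of the acute phase targets. They were found for 23.1% of fibroblast markers, 12.5% of immediate early genes and 25.0% of the members. All genes include 6816 at background level in both groups. Ptx3, a pentraxin, was 10.27, 10.15 and 10.22 in DFAT cells and 9.75, 13.14 and 13.08 in AC, and its groups overlapped. The chemokine gene Ccl2 was 10.66, 10.65 and 10.59 in DFAT cells and 9.49, 12.64 and 12.77 in AC. On AC replicate 1 both were below the DFAT arrays, and on the other AC arrays above them.

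Between the groups, 10 of the 14 acute phase targets fell and 1 rose, with a median difference of -3.69, and without AC replicate 1 the count of falls was 13. The differences were -8.99 for Orm1, which encodes orosomucoid, -8.28 for the metalloreductase gene Steap4 and -7.32 for Hp, which encodes haptoglobin. In DFAT cells 6 of the 14 lay at background level, among them Orm1 and Steap4, and Hp did so on 2 DFAT arrays. The sizes of these differences and the median of the list are therefore not exact. Orm2, called lower, was at background level on all arrays. Ptgs2, the inducible cyclooxygenase, was the gene that rose. It was 11.25, 11.20 and 11.14 in DFAT cells and 4.12, 7.03 and 6.55 in AC, a difference of 5.29.

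Markers of other cells moved on AC replicate 1 as well. The mean of 18 macrophage markers was 4.31, 4.38 and 4.36 in DFAT cells and 6.44, 8.10 and 8.20 in AC, and 17 of the 18 were lower on AC replicate 1 than on both other AC arrays. The mean of 18 endothelial markers was 4.44, 4.45 and 4.45 in DFAT cells and 9.62, 7.88 and 7.74 in AC, with 18 of 18 higher on AC replicate 1. Epithelial and mammary markers averaged 4.58, 4.44 and 4.46 in DFAT cells and 9.36, 8.72 and 8.63 in AC. The mean of 14 white adipocyte markers hardly differed among the AC arrays, at 6.01, 5.93 and 5.96 in DFAT cells and 12.53, 12.69 and 12.59 in AC. Single markers did differ. On AC replicate 1, 9 of the 14 were lower than on both other AC arrays, 1 of them by at least 1 on the log2 scale, and 3 were higher. Of 9 neutrophil markers, 8 lay at background level in DFAT cells and 6 in AC. Macrophages are known to express Cebpa, Cebpb and Cebpd, and the part of these cells in the levels of the members was not tested. Cebpa differed from the other AC arrays by 0.21 on AC replicate 1, Cebpb by -1.21 and Cebpd by -1.49.

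**Figure D5:**
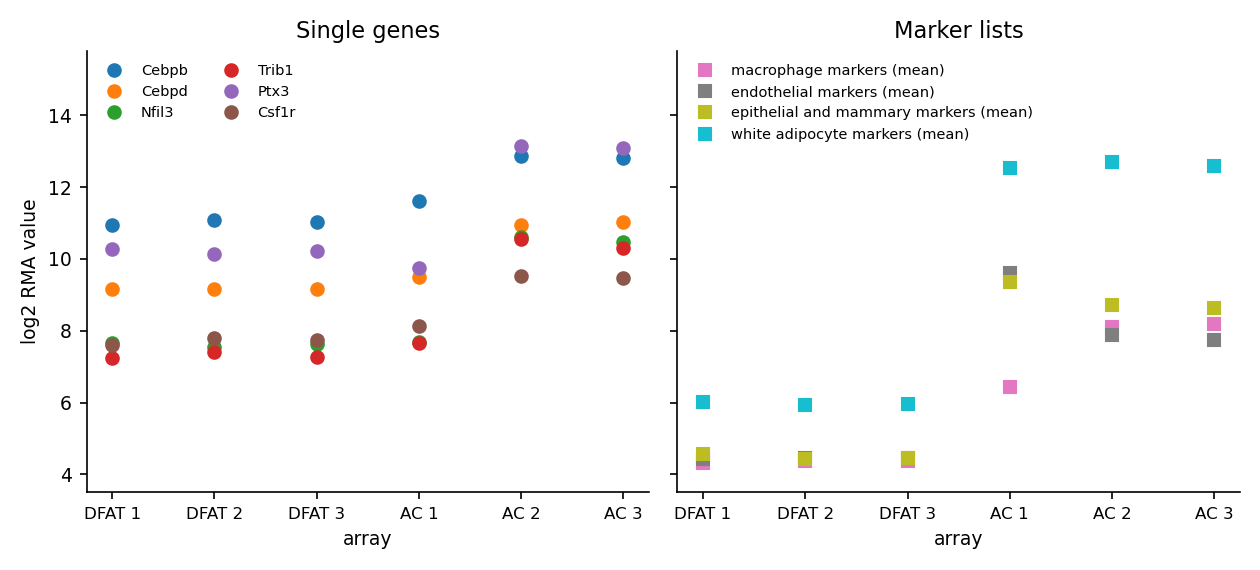
Log2 RMA values (vertical axis) on each of the 6 arrays (horizontal axis, DFAT left of AC) of 6 genes (left) and of the mean of 4 marker lists (right), each point an array. Cebpb, Cebpd, Nfil3, Trib1, Ptx3 and Csf1r are lower on AC replicate 1 than on the other AC arrays, as is the mean of the macrophage markers, while the endothelial mean is higher there and the adipocyte mean hardly differs.

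For each member, the genes with the most similar profile over the 6 arrays were sought among 11376 genes above background level in at least 1 group, by the root mean square distance after each gene was centred on its own mean. Csf1r, the receptor of a macrophage growth factor, was nearest to Cebpb, at a distance of 0.065, with Fam107b at 0.0693 and Lhfpl2 at 0.0707 close behind. Arhgap24 was nearest to Cebpd, at 0.0648, with Tifa at 0.0789 and Csf1r at 0.079 next. Csf1r was 7.61, 7.79 and 7.74 in DFAT cells and 8.14, 9.52 and 9.48 in AC, so it shared the low value on AC replicate 1. Unlike 15 of the 18 macrophage markers, it lay above background level in DFAT cells. Its call was lost without DFAT replicate 1, DFAT replicate 3, AC replicate 2 or AC replicate 3. Slc25a10, a mitochondrial dicarboxylate carrier, was nearest to Cebpa, at 0.0773, with Hadhb and Mccc2 next, both enzymes of mitochondria. Lars, the leucine tRNA synthetase, was nearest to Atf5, at 0.0359, and Xpo5, an exporter of microRNA precursors, was nearest to Trib3, at 0.0629. Scyl3 was nearest to Atf4, at 0.0276, Lrrc41 to Ddit3, at 0.0306, and Vkorc1 to Cebpg, at 0.0251. These distances describe 6 arrays in 2 groups, so genes with a like difference come first.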

How the data were processed

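Values were those of 3 DFAT and 3 AC arrays, grouped by the sample titles. The deposited values were log2 values that the authors made with RMA, which corrects background, normalizes between arrays and summarizes the probes of a probe set; the version, and which arrays were normalized together, are not given in the sources used here. Arrays carry no read depth, and their number limits the precision.

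Apart from 64 control probe sets, all were used. Of 45037 probe sets tested, 34945 have 1 gene symbol in the platform annotation, 932 have several and 9160 none. DFAT cells minus AC was tested by limma 3.58.1 under R 4.3.3, two-sided and without a filter, with p-values adjusted by Benjamini and Hochberg's method across every probe set (threshold 0.05). The step was checked on simulated data. With 3 arrays a group, the smallest exact permutation p would be 0.1, so none was run. The fold rule of the methods calls a log2 difference of at least 2.

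Named genes were all probe sets of the members, the 3 largest differences of each list among non-overlapping calls, and the 3 nearest profiles. Others, such as Slc7a3, Slc2a4, Asns, Gpt2, Eprs, Wars, Chac1, Sesn2, Eif2ak3, Hspa5, Fabp4, Lpl, Pparg, Egr2, Ebf2, Akt1, Akt2, Batf3, Jdp2, Nfil3, Fosl1, Xbp1, Nupr1, Ptx3, Ccl2, Ptgs2 and Orm2, were named after their values were seen. The members and lists were chosen with earlier results of these data known, and some genes stand on several lists. Coordinates are given only for RefSeq promoters. Tables were made in Python 3.11.15 (pandas 2.3.3, numpy 2.4.6), and plots with matplotlib 3.10.9. Alternatives were other scalings, floors, filters and variance models, a t-test, other choices of probe set, a replicate block and leaving out each array.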

Additional observations from a re-analysis of the deposited data

How the results depend on the processing

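Of 144 differences of members under alternative settings, 123 kept their call, 21 lost it and none turned. Centred on the reference genes, 6053 probe sets were higher and 21824 lower, 2 members were higher, and Ddit3 and Atf4 had 0.18 and 0.15. Centred on the hybridization controls, 3405 probe sets and 1 member were lower, and Cebpb, Cebpd and Cebpg had -0.95, -0.87 and -0.03. Centred on the array median, Cebpg had -0.36. With the t-test, 2 members were lower, and Cebpb and Cebpd, at -1.41 and -1.33, did not pass. By the fold rule of the methods, with no test, 1739 probe sets and 1 member were higher, and 2005 and 1 lower. Ddit3 had 0.39 as the mean over its probe sets and 0.21 on the most variable of them. Leaving out each array gave 7279 to 10674 probe sets higher and 5881 to 10324 lower, 2 to 4 members higher and 2 to 4 lower. The members ranged from -3.00 to -2.85 for Cebpa, -1.81 to -1.19 for Cebpb, -1.83 to -1.06 for Cebpd, -0.53 to -0.45 for Cebpg, 0.44 to 0.64 for Ddit3, 0.49 to 0.58 for Atf4, 1.09 to 1.42 for Atf5 and 2.02 to 2.20 for Trib3. The cause of lost calls was not tested. Same-numbered arrays did not deviate together (correlations -0.02, -0.03 and 0.01), and with the replicate block 8639 probe sets were higher and 7384 lower, with every member's call kept. Values near background level limit the lowest probe sets.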
